A study of Mus musculus with 2 samples.

Results

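The MHC class II antigen presentation genes were followed through single-cell RNA profiles of cells taken from the central nervous system of transplanted mice. The group held 9 genes chosen by name, H2-Aa, H2-Ab1, H2-Eb1, H2-DMa, H2-DMb1, H2-DMb2, Cd74, Ciita and H2-Oa, and all 9 were found once each among the genes listed for both libraries. The study asked how cells descended from Cx3cr1 haplo-insufficient and wild-type blood-forming stem and progenitor cells (HSPCs) differ in the brain, and it gave 1 library labelled Cx3cr1-/+ (heterozygous) and 1 labelled Cx3cr1+/+ (wild type). For both libraries the labels give the same protocol: GFP+ and GFP- cells of the Lin- pool of Cx3cr1-/+ mice went by vein into CD45.1 recipients that had received 4 doses of 25 mg/kg busulfan, at 1 donor per recipient. The donors behind the wild-type library were not named, nor were the number, sex and age of the animals or the time after transplantation. With 1 library per genotype there is no replicate and no test, so each difference compares these libraries, and every interval covers counting error only (95%). RNA was counted as unique molecular identifiers (UMIs, 1 per captured molecule) by the v3.1 Chromium 3′ chemistry of 10x Genomics. These counts come from transcript ends and do not grow with gene length.

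Class II molecules display peptides of ingested proteins to CD4+ T cells. Their alpha and beta chains (here H2-Aa and H2-Ab1 of the H2-A molecule and H2-Eb1 of H2-E) assemble in the endoplasmic reticulum with the invariant chain Cd74, which blocks the groove and guides the complex to endosomes. There H2-DM (H2-DMa with H2-DMb1 or H2-DMb2) removes the last fragment of Cd74 and exchanges peptides, and H2-DO, whose alpha chain is H2-Oa, inhibits H2-DM. Ciita, the class II transactivator, does not bind DNA itself and is recruited to conserved X and Y boxes in front of these genes by the RFX and NF-Y factors. Dendritic cells and B cells make class II constantly, macrophages and monocytes variably, and microglia of the resting brain very little.

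Of the 9 genes, 7 lay within 224 kb on chromosome 17 (GRCm38, GENCODE M21). From one end to the other these were H2-Oa (chr17:34092340-34095234), H2-DMa (chr17:34119541-34139101), H2-DMb2 (chr17:34143307-34151555), H2-DMb1 (chr17:34153072-34160230), H2-Ab1 (chr17:34257689-34269419), H2-Aa (chr17:34282744-34287823) and H2-Eb1 (chr17:34305867-34316674). H2-Aa lay on the minus strand and the other 6 on the plus strand. Ciita lay at chr16:10480059-10528418 on the plus strand. The files list the members as ENSMUSG00000036594 (H2-Aa), ENSMUSG00000073421 (H2-Ab1), ENSMUSG00000060586 (H2-Eb1), ENSMUSG00000037649 (H2-DMa), ENSMUSG00000079547 (H2-DMb1), ENSMUSG00000037548 (H2-DMb2), ENSMUSG00000024610 (Cd74), ENSMUSG00000022504 (Ciita) and ENSMUSG00000024334 (H2-Oa). H2-DMb1 and H2-DMb2 are near-identical neighbours, so how their reads were divided is uncertain.

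The stretches in front of H2-Eb1, H2-DMb2, H2-Aa and H2-DMa are shown because the class II genes share a promoter layout and because H2-DMa departed from the other members in microglia-like cells. Each line gives the 250 bases before the RefSeq start (GRCm38.p6), 5′ to 3′ on the gene's own strand. Capitals mark matches on either strand to the Y box core GATTGG or to the X1 box core ACNGATG.
H2-Eb1: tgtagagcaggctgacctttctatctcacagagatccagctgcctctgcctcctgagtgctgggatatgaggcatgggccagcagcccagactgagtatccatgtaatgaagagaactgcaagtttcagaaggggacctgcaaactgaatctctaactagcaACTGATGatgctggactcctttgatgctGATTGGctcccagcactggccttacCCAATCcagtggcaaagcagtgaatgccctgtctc
H2-DMb2: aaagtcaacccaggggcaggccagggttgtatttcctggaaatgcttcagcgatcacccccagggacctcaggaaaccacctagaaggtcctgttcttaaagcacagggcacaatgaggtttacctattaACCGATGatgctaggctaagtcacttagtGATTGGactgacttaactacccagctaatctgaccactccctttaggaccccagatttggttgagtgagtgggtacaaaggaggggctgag
H2-Aa: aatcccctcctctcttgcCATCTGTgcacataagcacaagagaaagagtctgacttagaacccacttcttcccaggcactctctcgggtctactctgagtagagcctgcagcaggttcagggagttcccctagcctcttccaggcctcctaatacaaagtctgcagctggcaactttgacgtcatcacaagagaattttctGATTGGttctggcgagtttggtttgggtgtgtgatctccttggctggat
H2-DMa: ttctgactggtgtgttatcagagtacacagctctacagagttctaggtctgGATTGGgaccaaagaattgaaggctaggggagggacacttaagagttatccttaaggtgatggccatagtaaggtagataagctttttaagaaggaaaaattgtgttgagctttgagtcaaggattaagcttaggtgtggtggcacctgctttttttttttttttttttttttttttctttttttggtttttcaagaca
The stretches are chr17:34305617-34305866 (plus), chr17:34144999-34145248 (plus), chr17:34287824-34288073 (minus) and chr17:34125268-34125517 (plus). The first overlaps an exon of an antisense transcript. The second and the last lie inside the GENCODE extents of H2-DMb2 and H2-DMa, and the second ends a few bases inside an exon of H2-DMb2. H2-DMa has a further RefSeq start upstream with neither core in its 250 bases. The RefSeq table gave 7 promoters for 6 of the 9 members, and H2-Ab1, Ciita and Cd74 had no entry in it. Of the 7 promoters, 6 held the Y core and 5 held both cores, against 14.6% and 1.18% of the 32851 promoters in the table. The X1 core alone was in 8.31% of all promoters. Between the cores lay 21 bases in H2-Eb1 and 22 bases in both H2-DMb1 and H2-DMb2, all on the same strand, 86 bases in H2-Oa, and 176 bases in H2-Aa, where the X1 match was on the other strand. In H2-DMa no X1 match was found and the Y match lay 199 to 194 bases before the start. A match describes the letters and no more, and a missing match says only that these letters are not in this window.

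There were 17828344 UMIs over 1837 heterozygous and 22062823 UMIs over 2359 wild-type barcodes, of which 1489 and 1949 were kept as cells, with medians of 6880 and 6637 UMIs. The libraries listed 339 barcodes in common, carried by 255 kept heterozygous and 198 kept wild-type cells. Cx3cr1 itself stood at 2211 CPM (the usual depth-scaled unit, here the UMIs of a gene over all UMIs of the cells summed) in heterozygous and 2149 CPM in wild-type microglia-like cells. In monocyte-like cells its levels were 221 and 346 CPM (log2 ratio -0.65, -0.79 to -0.51). Since the altered part of the gene is not given in the labels, these levels do not check the genotype. Sex-linked transcripts also differed between the libraries. Of heterozygous macrophage-like cells 94.9% held Xist and no Y-linked UMI, while 15.2% of the wild-type ones did and 48.7% held only Y-linked ones.

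The cell type label of both libraries names microglia-like cells, but most cells had the markers of other types. Cells were clustered without the class II genes and named from marker genes. Microglia-like cells (206 heterozygous, 310 wild type) were 13.8% and 15.9% of the kept cells and formed a cluster led by Adamts1, P2ry12, Nav3 and Siglech (94 and 123 cells) and a shallow cluster led by Klk8, Syngr1 and Sparc (112 and 187 cells). Of the 10 microglia markers 10 stood out in the first cluster and 9 in the shallow one, and 7 did so in an unnamed cluster led by neutrophil genes (105 and 182 cells). Macrophage-like cells (255 and 197) formed a cluster led by Mgl2, Ccl7 and Ccl17 that also held Cd209f and Lyve1 (104 and 150 cells), called the Mgl2-Lyve1 cluster here, and a cluster led by Gpnmb, Spp1 and Apoe (151 and 47 cells). The Mgl2-Lyve1 cluster was mixed, with Mmp12, Cd209a and Ccl22 also among its leading genes. In it 12 of 15 macrophage markers stood out, beside 3 of 10 dendritic cell markers (Cd209a, Itgax, Clec10a) and 2 of 8 classical monocyte markers (Ccr2, F13a1). Monocyte-like cells (284 and 621) were classical (Vcan, Ccr2, Ly6c2; 103 and 203 cells) or patrolling (Cd300e, Ace, Treml4; 181 and 418 cells), and neutrophil-like cells numbered 209 and 269. An unnamed cluster led by Ifi205, Birc5, Top2a and Mki67, the last ones genes of dividing cells, held 145 and 143 cells. A finer clustering set apart 36 and 71 dendritic cell-like cells, 61 of them from the Mgl2-Lyve1 cluster and 46 from the dividing cluster. The sort can set these numbers.

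Class II RNA was graded over the cell populations, with dendritic cell-like cells highest. Over the 9 genes together, dendritic cell-like cells held 50034 CPM (heterozygous) and 52163 CPM (wild type). The Mgl2-Lyve1 cluster followed with 25705 and 31663 CPM, then the dividing cluster with 18093 and 22504 CPM and B cell-like cells (16 and 11 cells) with 14499 and 17980 CPM. Classical monocyte-like cells held 6672 and 8420 CPM and patrolling ones 1216 and 1902 CPM. The P2ry12 microglia-like cluster stood between them at 3993 and 5405 CPM, and the shallow microglia-like cluster was at 1103 and 2489 CPM. Choroid plexus-like cells, which are not known for class II, held 307 and 223 CPM. In endothelial-like cells 115 of 642251 heterozygous and 285 of 265969 wild-type UMIs came from the 9 genes. There 4 of the 40 wild-type cells held 86.7% of the wild-type class II UMIs. With the shared cells counted in each, the order of the first 4 populations was the same in both libraries. These populations overlap, since 61 dendritic cell-like cells are also counted in the Mgl2-Lyve1 cluster and 46 in the dividing cluster. The order of those clusters without the shared cells was not examined.

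**Figure D1:**
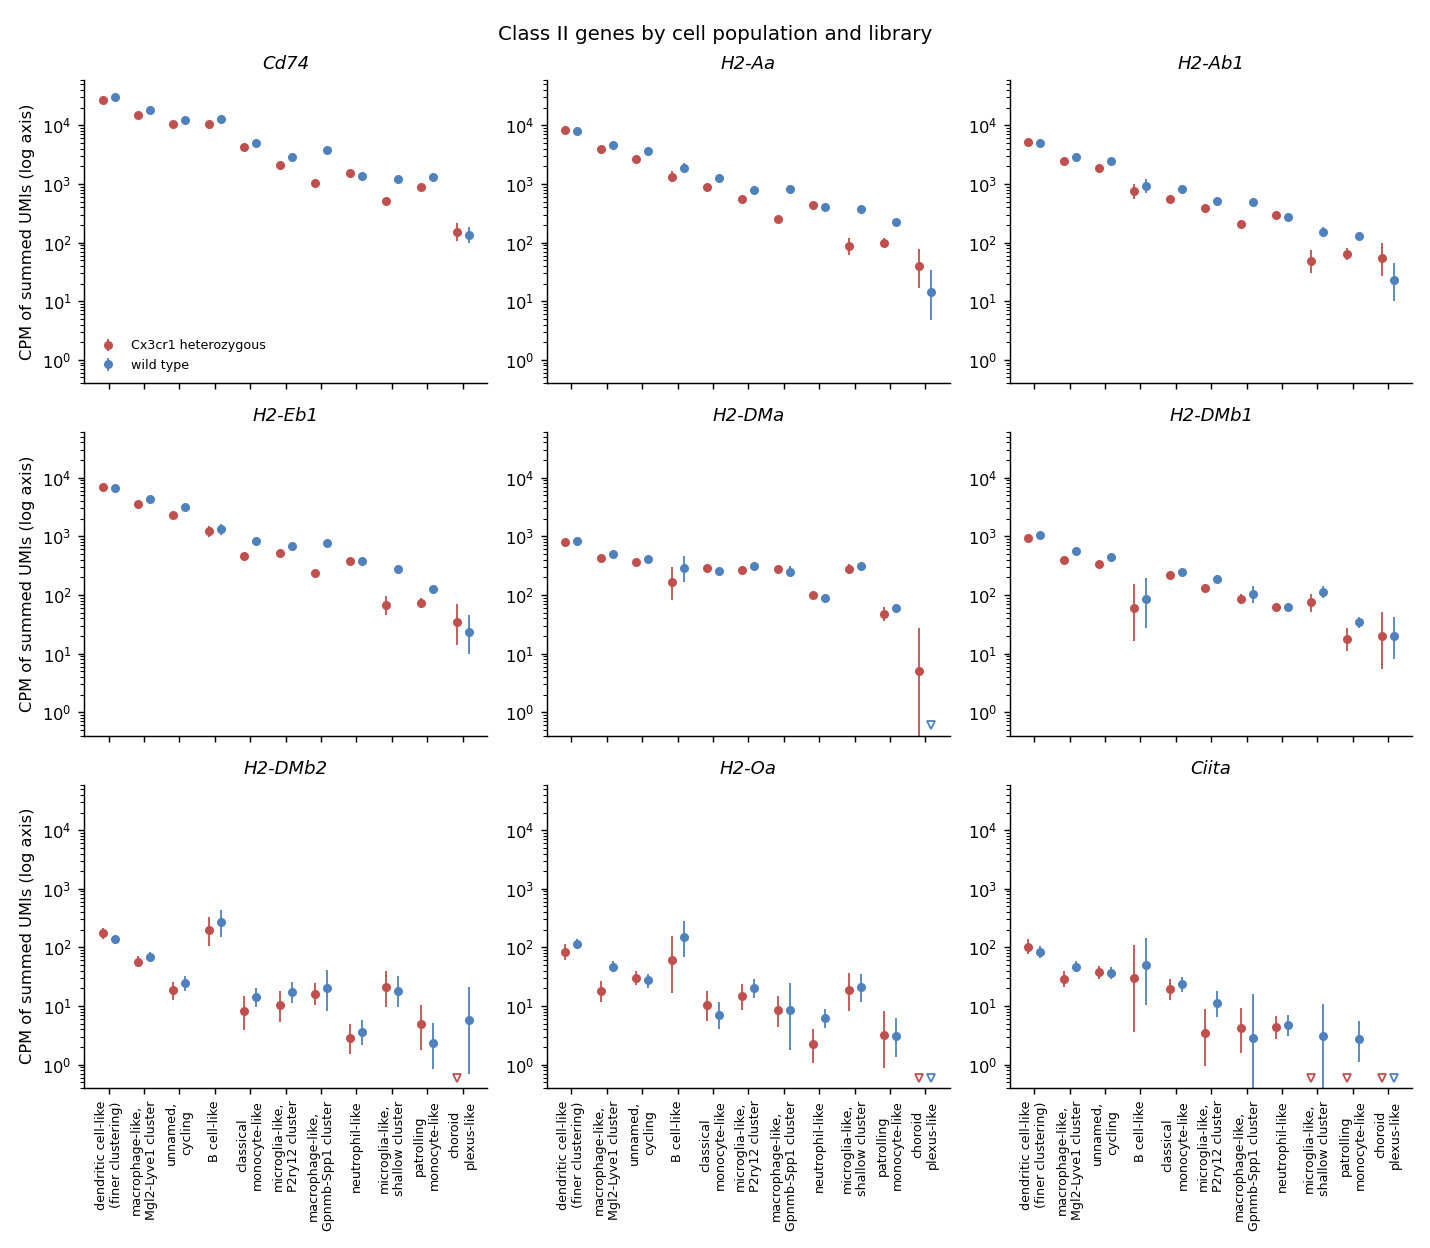
CPM of each of the 9 genes (log axis) in 11 cell populations, heterozygous library in red and wild-type library in blue, 1 library each. Bars are exact Poisson 95% intervals and cover counting error only, and open triangles mark populations without a UMI. Cd74 runs from 27450 and 30272 CPM in dendritic cell-like cells to 154 and 136 CPM in choroid plexus-like cells, while H2-DMa stays between 263 and 318 CPM in both microglia-like clusters.

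Cd74 was the most abundant member, with 158592 UMIs in 2197 of the 3438 kept cells. It stood at 14787 CPM (14593 to 14984) in heterozygous and 18411 CPM (18214 to 18609) in wild-type cells of the Mgl2-Lyve1 cluster. In microglia-like cells it stood at 1664 and 2341 CPM and in neutrophil-like cells at 1512 and 1364 CPM. The dividing cluster, at 10411 CPM (10260 to 10564) in the heterozygous and 12257 CPM (12103 to 12412) in the wild-type library, was not apart from the B cell-like cells, at 10674 CPM (9903 to 11490) and 13015 CPM (12115 to 13964), since the intervals overlap in both libraries.

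The surface chains H2-Aa, H2-Ab1 and H2-Eb1 followed Cd74 from population to population. In the Mgl2-Lyve1 cluster the heterozygous and wild-type libraries held H2-Aa at 3946 and 4700 CPM, H2-Eb1 at 3591 and 4412 CPM, and H2-Ab1 at 2460 and 2929 CPM. H2-Aa was thus the highest and H2-Ab1 the lowest of the 3 in both libraries. In microglia-like cells H2-Aa stood at 429 and 651 CPM, H2-Eb1 at 406 and 556 CPM, and H2-Ab1 at 296 and 403 CPM, in the same order. In patrolling monocyte-like cells the 3 chains lay between 64.0 and 99.6 CPM in the heterozygous and between 127 and 225 CPM in the wild-type library, beside 34.7 to 54.5 and 14.5 to 23.2 CPM in choroid plexus-like cells.

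H2-DMa, the alpha chain of the peptide exchanger, had a flatter profile than Cd74. It stood at 425 and 493 CPM in the Mgl2-Lyve1 cluster of the heterozygous and wild-type library, at 273 and 250 CPM in the Gpnmb-Spp1 cluster, at 263 and 318 CPM in the P2ry12 microglia-like cluster and at 280.5 and 309 CPM in the shallow one. Its level in microglia-like cells thus lay much closer to that of the Mgl2-Lyve1 cluster than the Cd74 level did. H2-DMa was lower in patrolling monocyte-like cells, at 47.8 and 59.6 CPM, and reached 1 UMI in the heterozygous and 0 UMIs in the wild-type choroid plexus-like cells. H2-DMb1, its partner chain, was steeper, with 393 and 555 CPM in the Mgl2-Lyve1 cluster against 117 and 166 CPM in microglia-like cells.

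H2-DMb2, H2-Oa and Ciita were rare, with 560, 489 and 467 UMIs in all kept cells. H2-DMb2 was high in B cell-like cells, at 196 and 268 CPM in the heterozygous and wild-type library (13 and 16 UMIs), and stood at 175 and 138 CPM in dendritic cell-like cells, with overlapping intervals. H2-Oa stood at 60.2 and 151 CPM in B cell-like cells (4 and 9 UMIs), at 84.4 and 114 CPM in dendritic cell-like cells and at 18.1 and 47.2 CPM in the Mgl2-Lyve1 cluster. Ciita reached 103 and 84.8 CPM in dendritic cell-like cells, 37.6 and 36.5 CPM in the dividing cluster and 28.8 and 47.2 CPM in the Mgl2-Lyve1 cluster. In microglia-like cells Ciita had 4 UMIs in the heterozygous and 18 in the wild-type library. With so few molecules the order of these populations for H2-Oa and Ciita is not settled.

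Set against Cd74 molecules, the surface chains kept a similar proportion in several populations. Together they had 67.6 UMIs per 100 Cd74 UMIs in heterozygous and 65.4 in wild-type cells of the Mgl2-Lyve1 cluster, 67.9 and 68.8 in microglia-like cells, 73.9 and 76.7 in neutrophil-like cells and 74.7 and 65.0 in dendritic cell-like cells. In the shallow microglia-like cluster, from only 87 and 525 surface chain UMIs, it was 40.3 and 65.2. The proportion was lower in B cell-like cells, at 31.0 and 31.7. It was also lower in classical monocyte-like cells, at 45.1 and 58.0, and in patrolling ones, at 26.2 and 36.8. H2-DMa varied widely in this measure. It had 2.87 and 2.68 UMIs per 100 Cd74 UMIs in the Mgl2-Lyve1 cluster, 12.6 and 11.1 in the P2ry12 microglia-like cluster, 55.6 and 25.2 in the shallow microglia-like cluster and 26.0 and 6.68 in the Gpnmb-Spp1 cluster. H2-DMb2 had 1.83 and 2.06 in B cell-like cells against 0.385 and 0.376 in the Mgl2-Lyve1 cluster.

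**Figure D2:**
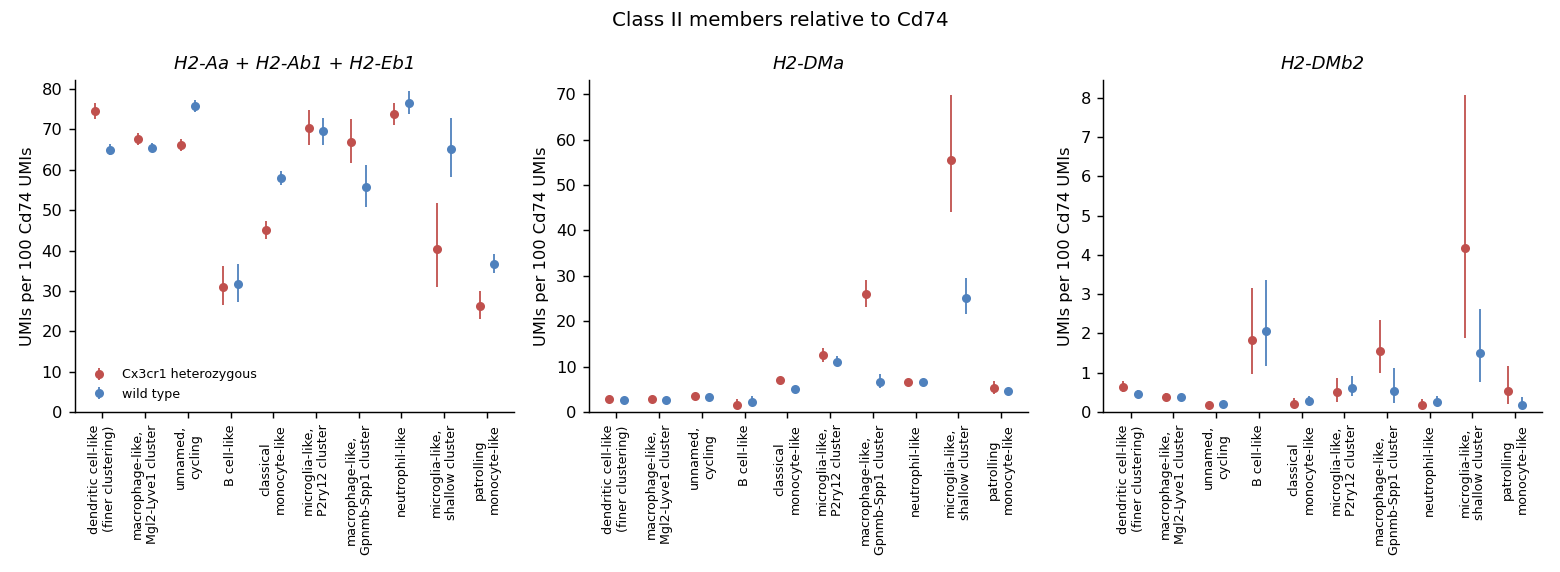
UMIs of the 3 surface chains together, of H2-DMa and of H2-DMb2 per 100 Cd74 UMIs in 10 cell populations, heterozygous library in red and wild-type library in blue, with 95% intervals for counting error only. The surface chains sit at 31.0 and 31.7 in B cell-like cells and between 65.0 and 74.7 in the Mgl2-Lyve1 cluster and dendritic cell-like cells, while H2-DMa reaches 55.6 and 25.2 in the shallow microglia-like cluster.

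Shares of cells with a UMI were compared after each cell was thinned to 2000 UMIs, which left out 41 heterozygous and 79 wild-type microglia-like cells. Surface chain UMIs were then found in 36 of 165 heterozygous microglia-like cells (21.8%, 15.8 to 28.9) and in 60 of 231 wild-type ones (26.0%, 20.4 to 32.1). Choroid plexus-like cells, used for the background from free RNA, had 28.6% of 42 and 27.3% of 33 cells with such a UMI, and NK cell-like cells 15.4% of 26 and 11.8% of 51. Of all choroid plexus-like cells before thinning, 75.0% in the heterozygous and 100% in the wild-type library carried barcodes found in both libraries. The plan had named neutrophil-like, NK cell-like and endothelial-like cells for the background, and not choroid plexus-like cells. The microglia-like share was not above that of choroid plexus-like cells, so the share alone does not tell expression from background. It was above the NK cell-like share in both libraries, so this reading rests on the background chosen. The summed level was higher, at 3212 and 4480 CPM beside 307 and 223 CPM. Before thinning, 0 of 48 heterozygous and 0 of 36 wild-type choroid plexus-like cells held at least 10 surface chain UMIs. Among endothelial-like cells 0 of 87 and 2 of 40 did, and among microglia-like cells 15 of 206 and 35 of 310. Macrophage-like cells had 34.9% of 238 (28.8 to 41.3) in the heterozygous library, which overlaps the choroid plexus-like interval (15.7 to 44.6). They had 61.7% of 180 (54.1 to 68.8) in the wild-type library, above it (13.3 to 45.5). Within them the Mgl2-Lyve1 cluster had 65.3% and 73.7%, and the Gpnmb-Spp1 cluster 14.7% and 23.3%, again not above the choroid plexus-like share. Monocyte-like cells had 28.1% and 27.9% and neutrophil-like cells 27.1% and 20.6%. Before thinning the median cell held 4045 and 3725 UMIs among microglia-like cells and 9408 and 9250 UMIs among macrophage-like cells. It held 3507 and 3610 UMIs among choroid plexus-like cells and 7349 and 4811 UMIs among NK cell-like cells. The unthinned shares were 39.8% and 41.0% among microglia-like cells and 52.5% and 73.6% among macrophage-like cells.

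H2-DMa stood apart from this background. After thinning, its UMIs were seen in 37.6% (30.2 to 45.4) of the microglia-like cells of the heterozygous library and 44.6% (38.1 to 51.2) of those of the wild-type library. It was found in 0 of 42 and 0 of 33 choroid plexus-like cells, where the upper limits are 7.14% and 9.09%. The Gpnmb-Spp1 cluster had 43.4% and 48.8%. Cd74 was held by 35.2% and 37.2% of microglia-like cells, beside 23.8% and 45.5% of choroid plexus-like and 11.5% and 15.7% of NK cell-like cells. Its intervals overlap those of the choroid plexus-like cells, so that share is not read as expression. In patrolling monocyte-like cells Cd74 was found in 45.9% and 46.8% and H2-DMa in 10.1% and 10.5% of cells. The wild-type Cd74 share there lay beside the 45.5% of choroid plexus-like cells, so it is not read as expression either.

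In microglia-like, monocyte-like and neutrophil-like cells and in the Gpnmb-Spp1 cluster most class II molecules lay in few cells. The 10% of microglia-like cells highest for class II held 86.4% of the class II UMIs of their class in the heterozygous and 85.7% in the wild-type library. In monocyte-like cells the figures were 79.0% and 81.4%, and in neutrophil-like cells 84.9% and 89.1%. In the Gpnmb-Spp1 cluster they were 83.3% and 92.0%, in the Mgl2-Lyve1 cluster 39.7% and 30.7%, and in macrophage-like cells as a class 68.3% and 37.7%. In the heterozygous library 15 of 206 microglia-like cells (7.28%) held at least 10 surface chain UMIs, as did 35 of 310 (11.3%) in the wild-type library, while 60.2% and 59.0% held none. Of macrophage-like cells 69 of 255 (27.1%) and 102 of 197 (51.8%) held at least 10.

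**Figure D3:**
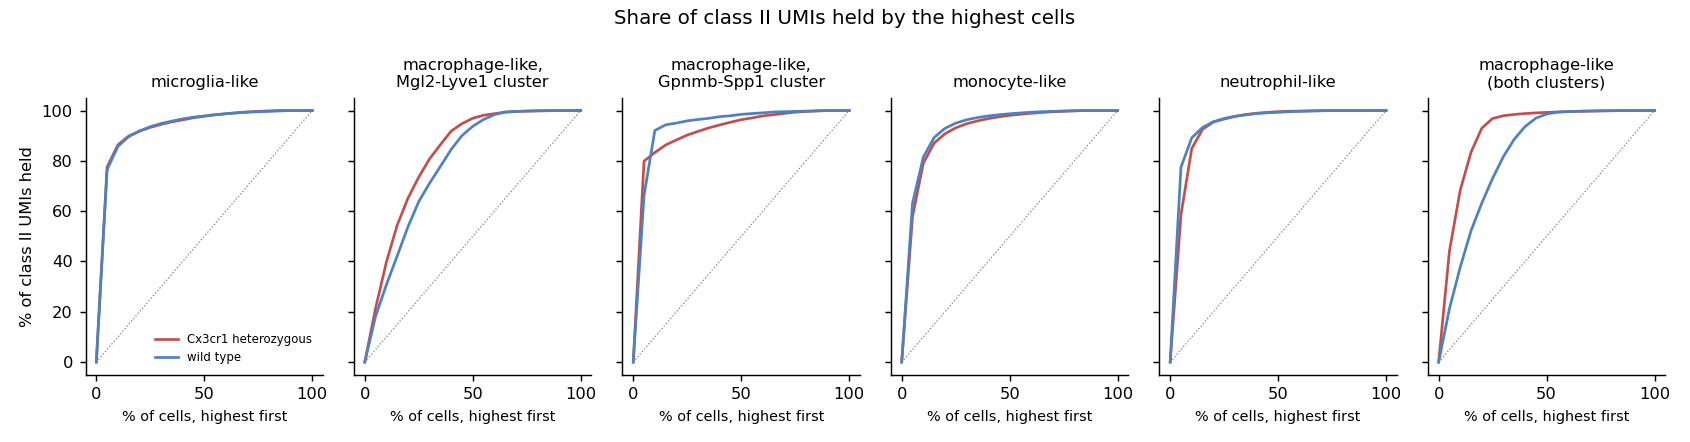
Share of the summed class II UMIs (vertical axis, %) held by the highest cells (horizontal axis, % of cells, highest first) in 6 cell populations, heterozygous library in red and wild-type library in blue and the diagonal an even spread. The curves of microglia-like cells reach 86.4% and 85.7% at the first 10% of cells, those of the Mgl2-Lyve1 cluster 39.7% and 30.7%.

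Cells with many surface chain UMIs also held more of other members. After thinning, heterozygous cells of the Mgl2-Lyve1 cluster with at least 5 surface chain UMIs (51 cells) had H2-DMb1 at 647 CPM and H2-DMa at 755 CPM, against 15.2 CPM (1 UMI) and 182 CPM in cells with none (33 cells). In the wild-type library (89 and 36 cells) H2-DMb1 was at 949 against 27.8 CPM (2 UMIs) and H2-DMa at 781 against 153 CPM. Both chains of the exchanger were thus higher in the cells with surface chains in each library. The dendritic cell-like cells of this mixed cluster were not set apart here. Before thinning, 43 of its 45 wild-type dendritic cell-like cells held at least 10 surface chain UMIs. Whether the difference lies between cell types within the cluster was not tested. In the P2ry12 microglia-like cluster the difference was smaller for H2-DMa, at 444 against 197 CPM in 9 and 61 heterozygous cells and at 469 against 323 CPM in 16 and 82 wild-type cells. Its log2 ratios there, 1.18 (-0.19 to 2.38) and 0.54 (-0.40 to 1.39), had intervals reaching both signs. H2-DMb1 had ratios of 1.44 (-0.69 to 3.23, from 4 and 10 UMIs) in heterozygous and 1.81 (0.75 to 2.82) in wild-type cells of that cluster. Among classical monocyte-like cells Ciita was at 114 against 16.9 CPM in the heterozygous and 130 against 8.55 CPM in the wild-type library, log2 ratios of 2.75 (0.13 to 6.14) and 3.93 (1.76 to 7.13) that rest on 2 UMIs in the cells without surface chains of each library.

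Marker genes in the same cells were looked at after their values were seen. Mgl2, a lectin of dendritic cells and macrophages, was higher in the cells with at least 5 surface chain UMIs than in those with none, by a log2 ratio of 2.27 in heterozygous and 3.46 in wild-type cells of the Mgl2-Lyve1 cluster. In the P2ry12 microglia-like cluster Mgl2 had 5 UMIs in heterozygous cells with surface chains and 0 in those without, and 7 and 1 UMIs in wild-type ones (5.16, 2.20 to 10.7). Ccr2, a chemokine receptor of classical monocytes, had 3 and 3 UMIs in the heterozygous (2.76, -0.14 to 5.66) and 16 and 1 UMIs in the wild-type library (6.36, 3.67 to 11.7). The lectin Cd209a had 0 and 0 UMIs in heterozygous and 10 and 0 in wild-type cells. The platelet and macrophage chemokine gene Pf4 had a ratio of 2.98 in the heterozygous and -1.45 (-6.85 to 1.27) in the wild-type library, and S100a8 had 2.42 and -1.38. Among microglia genes P2ry12 was lower in both libraries, with ratios of -1.44 (heterozygous) and -1.15 (wild type). The intervals of Tmem119 reached both signs, with ratios of -0.39 (-1.30 to 0.41) and -0.35 (-0.97 to 0.21). So did those of the transcription factor Sall1, at -1.63 (-7.00 to 1.00, from 1 and 21 UMIs) and 0.84 (-0.64 to 2.14). Lyve1, a receptor of perivascular macrophages, had 0 UMIs in 51 heterozygous and 4 UMIs in 89 wild-type cells with surface chains, against 21 UMIs in 33 and 32 UMIs in 36 cells without. In classical monocyte-like cells with surface chains the classical markers were lower, with log2 ratios of -2.19 and -1.93 for Ly6c2 and of -4.07 (-7.14 to -2.17) and -4.30 (-6.19 to -2.93) for Chil3 in the heterozygous and wild-type library. Whether such barcodes hold more than 1 cell was not tested.

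Of the 4 cell classes, macrophage-like cells showed the largest difference in class II between the libraries, lower in the heterozygous one. Heterozygous cells held 14271 CPM of the 9 genes together and wild-type cells 27575 CPM, which gave a log2 ratio (heterozygous over wild type) of -0.95 (-0.97 to -0.93). Each class was described with its members of at least 50 UMIs in both libraries together. Of the 9 members 8 were lower by more than 1.5-fold, against 5.1% of the 7455 genes with at least 50 UMIs in the class, and 0 were higher, against 6.85%. Cd74 stood at 8122 and 16054 CPM (log2 ratio -0.98), H2-Aa at 2155 and 4077 CPM (-0.92), H2-Ab1 at 1366 and 2538 CPM (-0.89) and H2-Eb1 at 1966 and 3827 CPM (-0.96). Ciita had 49 and 87 UMIs, a ratio of -1.25 (-1.78 to -0.72), and H2-Oa 39 and 89 UMIs, a ratio of -1.61 (-2.19 to -1.05). H2-DMa was within 1.5-fold, at 351 and 454 CPM (-0.37). The median over the members was -0.96 and over all genes measured 0.01.

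The make-up of the class also differed between the libraries, and its part in the ratio was not tested. The Gpnmb-Spp1 cluster, low in class II, held 151 of the 255 heterozygous but 47 of the 197 wild-type macrophage-like cells. Within the Mgl2-Lyve1 cluster the ratio of the 9 genes was -0.30 (-0.32 to -0.28), and 2 of 9 members were lower by more than 1.5-fold, against 3.66% of 6169 genes, and 0 higher, against 4.62%. The 2 were H2-Oa (-1.38, from 27 and 86 UMIs) and Ciita (-0.71, from 43 and 86 UMIs). The 61 dendritic cell-like cells inside this cluster were 16 of its 104 heterozygous and 45 of its 150 wild-type cells. They held 14821 of its 38346 heterozygous and 32304 of its 57690 wild-type class II UMIs. How far this unequal content sets the ratio within the cluster was not tested. A finer cluster led by Ccl7 and Lyve1, of 67 heterozygous and 79 wild-type cells, took 140 of its 146 cells from the Mgl2-Lyve1 cluster and stood at 25676 and 23726 CPM, a ratio of 0.11. In the Gpnmb-Spp1 cluster the ratio was -1.53 (-1.61 to -1.45), with Cd74 at 1051 and 3736 CPM (-1.83) and H2-DMa at 273 and 250 CPM (0.13). There 4 of 6 members were lower by more than 1.5-fold, Cd74 and the 3 surface chains, against 6.33% of 4185 genes, and 0 higher, against 9.56%. Few cells carried that difference. In the heterozygous library 7 of its 151 cells held at least 10 surface chain UMIs, as did 4 of its 47 cells in the wild-type library, and the medians per cell were 445 and 477 CPM. The C1q genes, complement genes of microglia and macrophages, went the other way over the class, at 15784 and 10732 CPM (0.56), and the neutrophil genes S100a8 and S100a9 stood at 2709 and 2186 CPM, both chosen after values were seen. Their part in the result was not tested. Among Xist-marked cells of both libraries (242 and 30), a comparison chosen after values were seen, the ratio was -0.22 (-0.26 to -0.17) and 0 members were lower by 1.5-fold. H2-DMb2 alone was then higher (2.35, 0.46 to 5.41). With the 96 wild-type cells marked by Y-linked UMIs in their place the ratio was -1.24. A stricter cell filter turned the class ratio to 1.47, and under it 68 of 89 heterozygous and 106 of 128 wild-type cells of the Mgl2-Lyve1 cluster fell into unnamed clusters.

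In microglia-like cells the 9 genes stood at 3212 and 4480 CPM, a ratio of -0.48 (-0.53 to -0.43). Of 8 measured members 1 was lower by more than 1.5-fold, against 2.1% of 6851 genes, and 0 were higher, against 4.19%. This was H2-Aa, with a ratio of -0.60 (-0.74 to -0.47), while the other members with at least 50 UMIs lay between -0.23 for H2-DMa and -0.50 for H2-DMb1. In the P2ry12 cluster the ratio of the sum was -0.44, and in the shallow cluster, with 472 and 1635 UMIs, -1.17. In the P2ry12 cluster 0 of 6 measured members were lower by more than 1.5-fold, against 2.38% of 6131 genes, and 0 higher, against 4.52%. In the shallow cluster 5 of 6 were lower, against 6.64% of 2394 genes, and 0 higher, against 3.59%. The 5 were H2-Aa (-2.09), H2-Eb1 (-2.04), H2-Ab1 (-1.63), Cd74 (-1.28) and H2-DMb1 (-0.59, -1.24 to 0.03), while H2-DMa had a ratio of -0.14. Over the class, 0 heterozygous and 30 wild-type cells held UMIs of both Xist and a Y-linked gene. These 30 had a median of 18506 UMIs and 5010 of the 9272 wild-type class II UMIs, and 29 of them were in the P2ry12 cluster. The 1 such cell of the shallow cluster had 78 of its 1635 wild-type class II UMIs. No heterozygous cell of the class held a Y-linked UMI, so leaving out cells of both marks could act on the wild-type library only. The libraries were then not treated alike. Without the 30 cells, a setting added after values were seen, the ratio over the class was 0.19 (0.13 to 0.25). H2-Aa then stood at 429 and 383 CPM and H2-Ab1 at 296 and 199 CPM, and 0 of the members measured were lower by 1.5-fold. Among Xist-marked microglia-like cells (98 and 88) the 9 genes stood at 3955 and 3059 CPM, a ratio of 0.37. Whether the barcodes with both marks held more than 1 cell was not tested.

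**Figure D4:**
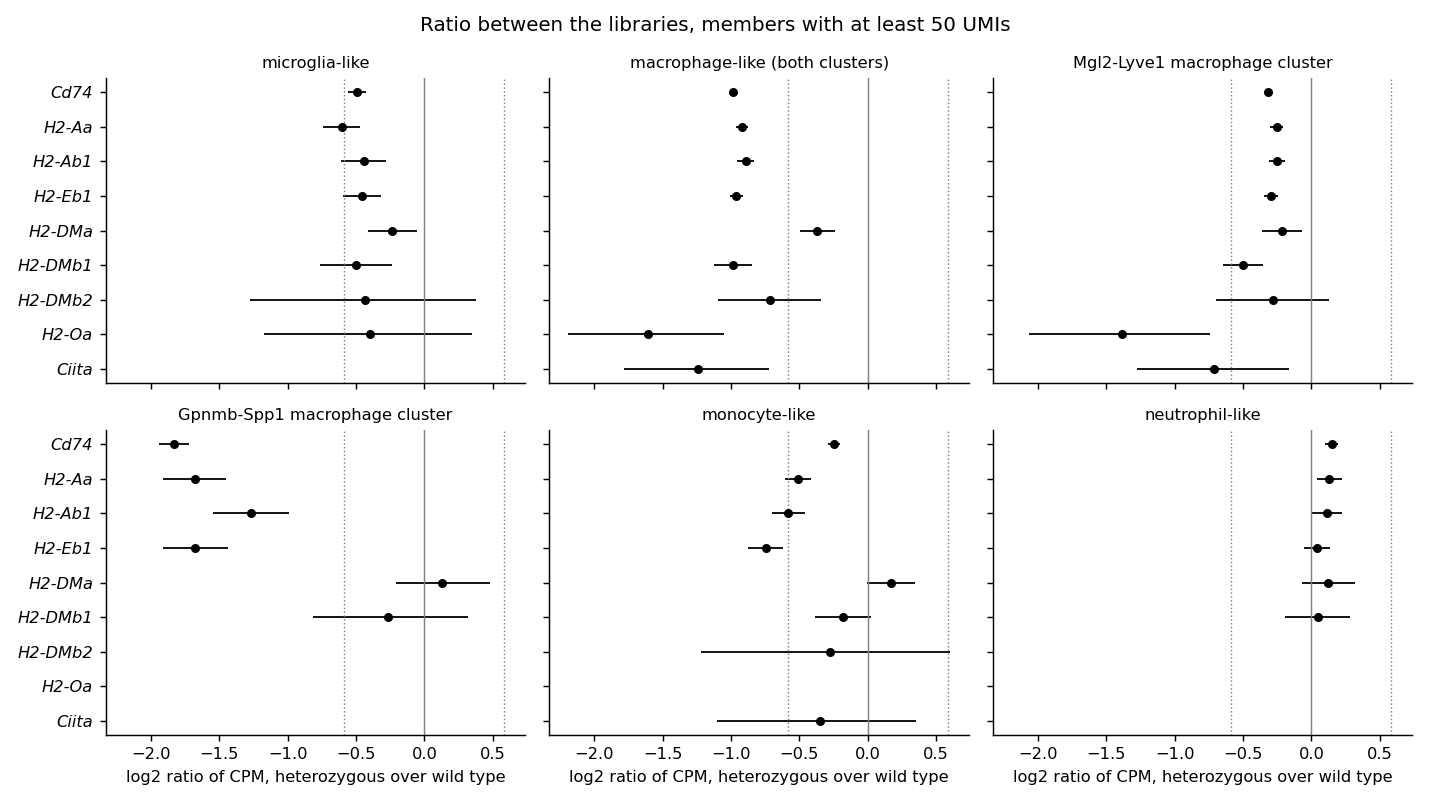
Log2 ratio of CPM, heterozygous over wild type (horizontal axis), for each member with at least 50 UMIs in 4 cell classes and the 2 macrophage-like clusters. Points are ratios of 1 library over 1 library, bars are exact 95% intervals for counting error only, and dotted lines mark 1.5-fold. The median over the members is -0.96 over both macrophage-like clusters and -0.30 within the Mgl2-Lyve1 cluster, and the members lie between 0.04 and 0.15 in neutrophil-like cells.

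Heterozygous monocyte-like cells held 3935 CPM and wild-type ones 4949 CPM of the 9 genes, which gave a ratio of -0.33 (-0.37 to -0.30). It was 0.11 when each cell was thinned to 2000 UMIs. Of 8 measured members 1 was lower by more than 1.5-fold, against 2.17% of 7777 genes, and 0 were higher, against 2.66%. H2-Eb1 stood at 269 and 452 CPM (-0.75), and H2-Ab1, at 303 and 454 CPM (-0.58), was just inside the limit. The surface chains together had a ratio of -0.59 (-0.66 to -0.53), while the DM chains stood at 293 and 292 CPM (0.01). By cluster the surface chains had ratios of -0.60 in classical and -1.03 in patrolling cells. Of 7 members measured in classical cells 2 were lower by more than 1.5-fold, H2-Eb1 (-0.82) and H2-Ab1 (-0.59), against 3.47% of 6056 genes, and 0 higher, against 3.6%. Of 6 in patrolling cells 4 were lower, H2-Aa (-1.18), H2-Ab1 (-1.04), H2-DMb1 (-0.94) and H2-Eb1 (-0.79), against 3.06% of 6200 genes, and 0 higher, against 2.71%. When the class II genes were kept among the genes that form the clusters, 19 of 103 heterozygous and 48 of 203 wild-type classical cells took the dendritic cell-like name. The monocyte-like levels were then 1630 and 1853 CPM. With each library clustered alone the ratio turned to 0.75. There 44 of the 104 heterozygous but 24 of the 150 wild-type cells of the Mgl2-Lyve1 cluster took the monocyte-like name. Their part in the shift was not tested.

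Neutrophil-like cells had 2800 and 2577 CPM, a ratio of 0.12 (0.08 to 0.16), whose sign turned under other cell filters (-0.26 each). Of 6 measured members 0 were lower by more than 1.5-fold, against 3.76% of 8093 genes, and 0 higher, against 2.35%. Class II in this class lay mostly in barcodes that also held C1q RNA. The 101 heterozygous and 124 wild-type barcodes with at least 10 C1q UMIs (48.3% and 46.1% of the class) held 93.7% and 84.3% of its class II UMIs, at 3708 and 3236 CPM. The other 108 and 145 barcodes stood at 600 and 1233 CPM, a ratio of -1.04. Median depths were 29977 and 21361 UMIs with C1q and 7915 and 7218 UMIs without. Of the neutrophil-like cells with at least 10 surface chain UMIs, 31 of 36 heterozygous and 33 of 36 wild-type ones held at least 10 C1q UMIs. Whether these barcodes held a second cell was not tested.

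**Figure D5:**
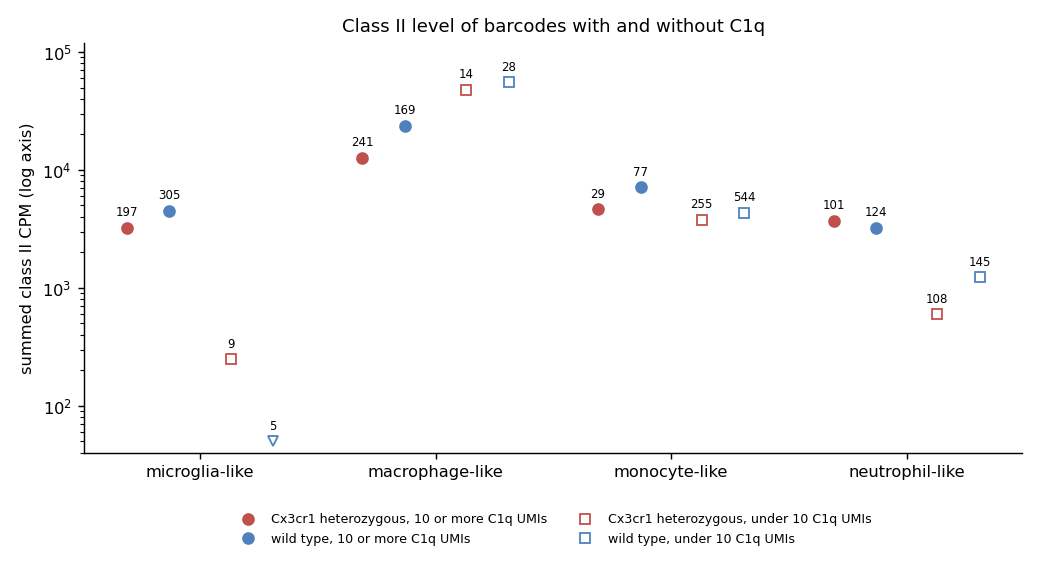
Summed class II CPM (log axis) in barcodes with at least 10 (filled circles) and under 10 (open squares) C1q UMIs in 4 cell classes, heterozygous library in red and wild-type library in blue; numbers are cells, and the triangle at the axis marks 0 UMIs. Neutrophil-like barcodes stand at 3708 and 3236 CPM with C1q and at 600 and 1233 CPM without, whereas macrophage-like barcodes with few C1q UMIs (14 and 28 cells) stand at 48006 and 55723 CPM.

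Genes that serve the same pathway were counted from lists. Of the wider class II list (transcription factors of the X and Y boxes, endosomal proteases and regulators of traffic), 1 of 14 measured genes was higher in heterozygous microglia-like cells, Rfxap, an RFX subunit (37.9 and 21.7 CPM, ratio 0.80, 0.22 to 1.39), and 0 were lower. In macrophage-like cells 4 of 15 were higher and 1 lower. Nfya, a subunit of NF-Y, had a ratio of 0.82, the endosomal protease Lgmn one of 0.67 and the tetraspanin Cd9 one of 0.60, while the lysosomal reductase Ifi30 stood at 441 and 698 CPM (-0.66). The 4th higher gene was the protease Ctsl (0.60), named after its value was seen. In monocyte-like and neutrophil-like cells 0 of 13 and 0 of 14 were beyond 1.5-fold. The list medians were 0.0037, 0.30, 0.03 and -0.03 in microglia-like, macrophage-like, monocyte-like and neutrophil-like cells, and those of all genes 0.04, 0.01, 0.02 and -0.07.

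Of the interferon gamma axis, the main inducer of Ciita in macrophages, 1 of 9 measured genes was higher in microglia-like cells, Jak2 (0.66, with an interval of -0.09 to 1.42). In macrophage-like cells 1 of 12 was higher, the feedback inhibitor Socs1 (0.65, -0.12 to 1.45), and 1 lower, the interferon-induced GTPase Gbp2 (25 and 37 UMIs, -0.98). In monocyte-like cells 0 of 11 were beyond 1.5-fold, and in neutrophil-like cells 2 of 12 were lower, Cd274 (-0.76) and Gbp2 (-0.59), named after their values were seen. The medians of this list were 0.15, -0.16, -0.13 and -0.12 in the same order of classes. Among costimulatory genes Tnfsf9, the ligand of 4-1BB, was lower in microglia-like cells (16.4 and 42.5 CPM, -1.37), 1 of 6 measured. It was also lower in macrophage-like cells (66.6 and 193 CPM, -1.53), with the adhesion gene Icam1 (-0.60), 2 of 7. In monocyte-like cells 1 of 8 was higher, Cd40 (0.62, -0.25 to 1.48), and in neutrophil-like cells 0 of 6 were beyond 1.5-fold. Its medians were 0.04, 0.05, 0.17 and -0.0034. Class I genes stayed within 1.5-fold in 17 of 17 microglia-like and 18 of 18 neutrophil-like measurements. In macrophage-like cells H2-Q6 was lower (-0.68), 1 of 18, and in monocyte-like cells Nlrc5, the class I transactivator, was higher (0.71, from 36 and 43 UMIs), 1 of 19. Its medians were 0.01, -0.0031, 0.03 and -0.19. The shares of all genes beyond 1.5-fold in each class, given above, are the background for these counts.

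Over 28 sums of 1 cluster in 1 library (14 per library, at least 20 cells each), the surface chains, Cd74 and H2-DMb1 had the closest profiles. The correlation of each member with the mean of the others on the log2(CPM + 10) scale was 0.97 for H2-Aa, H2-Ab1, H2-Eb1 and Cd74, 0.96 for H2-DMb1, 0.88 for Ciita, 0.83 for H2-DMa, 0.80 for H2-DMb2 and 0.76 for H2-Oa. The profiles of 8723 genes, a number that counts the members too, were compared with that of the members. The 10 other genes most like them were Slamf8 (r = 0.91), Batf3 (0.89), Rab7b (0.87), Rbpj (0.86), Pak1 (0.83), Ccl2, Qpct, Nlrp1b and Mgl2 (0.81 each) and Cd83 (0.80). Batf3 encodes a transcription factor of dendritic cells that take up cell debris, and Cd83 a surface protein of mature dendritic cells. The sums of 1 library share that library's depth and free RNA, and the 10 genes shared 4 with those found in the heterozygous library alone and 6 with those of the wild-type library alone.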

How the data were processed

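The deposited files were raw count matrices, UMI counts per gene and barcode that the authors made for each library. Cell Ranger 4.0 and the mouse build mm10 are given per the submitters' processing notes, while the file headers name 5.0.0, and this was not settled. Members and lists were chosen with earlier results of these data known. Cells were the barcodes in which 500 genes or more were detected and mitochondrial UMIs made up less than 10% (1489 of 1837 heterozygous, 1949 of 2359 wild type). Both libraries were scaled to 10000 counts and clustered together with scanpy 1.11.5 and igraph 0.11.9 in Python 3.11.15 (2000 variable genes, 30 principal components, 15 neighbours, Leiden resolution 0.5, and 1.0 for the finer clustering, seed 0), with 11 class II genes left out of the clustering genes. Clusters were named from marker lists by a rule set after the data were seen, and 3 of 18 stayed unnamed. Scrublet marked 0 doublets in either library, so none were removed, and it is taken not to have worked.

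UMIs of each gene were summed per population and library and given as CPM of that sum with exact Poisson intervals, ratios with exact conditional binomial intervals and shares of cells with Clopper-Pearson intervals, all at 95% (scipy 1.17.1). Limits for 0 cells use 3 counts. UMIs count molecules, so intervals and limits cover counting error only. Shares were taken after thinning each cell to 2000 UMIs. No test was possible with 1 library per genotype. edgeR 4.0.16 in R 4.3.3 was used only for TMM scaling factors. Sequences and motifs came from the RefSeq promoter table. The genes named were the 9 members, the 10 most like them in profile, up to 4 genes per list and class beyond 1.5-fold and the leading genes of clusters, apart from those said to be named after their values were seen. The script for ratios and counts was tested on simulated data. Alternatives covered the cell filter, clustering, shared barcodes, thinning, scaling, equal weight per cell, the UMI minimum, the pseudocount and, added after the data were seen, C1q UMIs, dendritic cell-like cells and sex-linked marks.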

Additional observations from a re-analysis of the deposited data

Results flagged for a closer look

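In NK cell-like and astrocyte-like cells the summed class II ratio went the other way from macrophage-like cells (-0.95). The log2 ratio was 4.51 in NK cell-like cells, where 1 heterozygous cell held 1027 of the 1054 class II UMIs (97.4%). Without that cell the heterozygous level was 86.7 CPM. The wild-type level was 137 CPM over all its cells and 129 CPM without its highest cell. The log2 ratio was 3.67 in astrocyte-like cells, where 1 heterozygous cell held 240 of 246 UMIs (97.6%). The heterozygous level without it was 106 CPM, against 145 CPM in the wild-type library without its own highest cell. The differences were not tested.

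Class II RNA was also present in the barcodes that failed the cell filter and entered no comparison. The 348 heterozygous ones held 5232 CPM (5075 to 5392) and the 410 wild-type ones 3778 CPM (3635 to 3924), where 0 counts would have allowed up to 3.72 and 4.27 CPM.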

How the results depend on the processing

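No paired analysis was possible because there was 1 library per genotype, and no replicate could be left out. Values are log2 ratios, heterozygous over wild type, of the 9 genes summed, and the cause of each shift was not tested. In macrophage-like cells (-0.95) the ratio was -0.70 with no cell filter, 1.47 with a stricter one, -0.74 with class II genes among the clustering genes, -0.78 at resolution 1.0, -1.03 with each library clustered alone, -0.85 without shared barcodes, -1.22 after thinning, -1.24 for Xist-marked over Y-marked cells, -0.73 without dendritic cell-like cells, -1.08 without cells of both marks, -0.22 for Xist-marked cells of both libraries and -1.16 with equal weight per cell. In microglia-like cells (-0.48) the same settings gave -0.34 with no filter, -0.67 with the stricter one, -0.40 with class II genes clustered, -0.30 alone, -0.25 without shared barcodes, -0.59 thinned, 0.32 for Xist over Y, 0.19 without cells of both marks, 0.37 for Xist-marked cells, -0.55 with TMM, -0.54 with median-of-ratios scaling and -0.67 with equal weight. In monocyte-like cells (-0.33) they gave -0.073 with no filter, -0.45 stricter, -0.18 with class II genes clustered, 0.75 alone, -0.37 without shared barcodes, 0.11 thinned, -0.40 for Xist over Y, -0.20 without barcodes of 10 or more C1q UMIs, -0.37 with TMM and 0.086 with equal weight. In neutrophil-like cells (0.12) they gave -0.26 with no filter and -0.26 stricter, -0.058 with class II genes clustered, 0.054 at resolution 1.0, -0.16 alone, 0.030 without shared barcodes, 0.58 thinned, 0.49 for Xist over Y, -1.04 without C1q barcodes, 0.18 with TMM, 0.17 with median-of-ratios scaling and 0.44 with equal weight.

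Of 375 ratios of single members under an alternative, 191 stayed inside the counting interval of the main ratio, 175 left it and 9 turned. A turn was counted only where the main ratio was beyond 1.5-fold. Changes of sign in smaller main ratios are therefore not among the 9. With the stricter filter Cd74 was at 1.71, H2-Aa at 2.999, H2-Ab1 at 2.51, H2-DMb1 at 0.77 and H2-Eb1 at 2.75 in macrophage-like cells. H2-DMb2 was at 2.35 in Xist-marked macrophage-like cells. H2-Aa was at 0.16 in microglia-like cells without cells of both marks and at 0.44 in Xist-marked ones. H2-Eb1 was at 0.88 in monocyte-like cells clustered alone.

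Members lower by more than 1.5-fold numbered 8 in macrophage-like cells, and 3 with no filter, 0 stricter, 4 at resolution 1.0, 5 thinned and 0 in Xist-marked cells. In microglia-like cells (1) they numbered 0 with no filter, with class II genes clustered, alone, without shared barcodes, for Xist over Y, without cells of both marks and in Xist-marked cells, 4 stricter and with equal weight, 3 thinned and 2 at a minimum of 10 UMIs. In monocyte-like cells (1) they numbered 0 with no filter, with class II genes clustered, alone, thinned, without C1q barcodes and with equal weight, 2 stricter, at resolution 1.0, without shared barcodes, with TMM and with median-of-ratios scaling, and 3 for Xist over Y. In neutrophil-like cells (0) they numbered 1 with no filter, stricter, alone and at 10 UMIs, and 5 without C1q barcodes. Members higher by more than 1.5-fold numbered 5 stricter and 1 in Xist-marked macrophage-like cells, 1 for Xist over Y and 1 in Xist-marked microglia-like cells, 7 in monocyte-like cells alone, and 2 thinned and 1 for Xist over Y in neutrophil-like cells. Each was 0 otherwise.

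Without thinning the shares of cells with a surface chain UMI were 52.5% in heterozygous and 73.6% in wild-type macrophage-like cells, 39.8% and 41.0% in microglia-like, 49.6% and 45.9% in monocyte-like and 50.2% and 52.0% in neutrophil-like cells. At 1000 UMIs they were 20.1% and 21.5% in monocyte-like and 14.1% in wild-type neutrophil-like cells. Of the 10 genes most like the members, 6 stayed with log2(CPM + 1), 4 in the heterozygous and 6 in the wild-type library alone. With 1 library per genotype, animal, sex, run and genotype cannot be told apart.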
